A study of Mus musculus with 17 samples.

Results

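Mutant epidermal stem cells of the upper hair follicle were compared with mutant stem cells of the bulge and hair germ. The question was which identity genes of the 2 compartments stood apart in cells labelled null for the ribosome rescue factor Pelo. The comparison used the 3 libraries of Pelo-null Lrig1 cells and the 3 of Pelo-null Lgr5 cells among the 17 libraries of the series. It covered 30405 of 48820 gene identifiers, those that passed a filter on low counts, and a positive difference means higher in Lrig1 cells. Both groups came from epidermis of C57BL/6 mice aged 3 months that were Pelo fl/fl (called Pelo -/- in the labels) and treated with 4-OHT, 4-hydroxytamoxifen. One group carried Lrig1 EGFP-CreERT2 and the other Lgr5 EGFP-CreERT2, alleles that express a green fluorescent protein and a tamoxifen-dependent Cre recombinase where Lrig1 or Lgr5 is active. The same allele therefore served both to delete Pelo and to mark the cells for sorting, so population, sort and Cre line cannot be told apart. Each library was made from 1000 GFP-positive cells collected by flow cytometry. The groups set beside these were 2 libraries of WT Lrig1 and 3 of WT Lgr5 cells, whose mice were Pelo fl/+ with the same alleles and treatment, and 3 of Pelo-null Lgr6 cells, sorted with Lgr6 EGFP-CreERT2. Whether replicates are different mice is not stated in the labels, so p-values measure the spread between these samples, which may be technical.

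The hair follicle keeps several pools of stem cells. Cells of the bulge and the hair germ beneath it feed the cycling lower follicle, and they are known for a program of transcription factors such as Sox9 and Lhx2, for Wnt receptors and secreted Wnt and BMP antagonists, and for surface CD34. Cells of the upper follicle, marked by Lrig1, feed the infundibulum and the sebaceous gland and lie next to the epidermis that makes the skin barrier. Pelo encodes a protein that, with its partner Hbs1l, splits ribosomes stalled on messenger RNA.

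Called bulge genes were mostly lower, and called spinous and granular, histocompatibility and Ly6 surface genes mostly higher, in Pelo-null Lrig1 than in Pelo-null Lgr5 cells. A gene was called when its edgeR quasi-likelihood p, adjusted over all 30405 genes by Benjamini and Hochberg, was under 0.05. In all 2386 genes were called, 7.85% of those tested, with 1753 higher (5.77%) and 633 lower (2.08%) in Lrig1 cells. The ranges of CPM, the read counts scaled to library size with TMM, of the 2 groups did not overlap for 2338 of the 2386, where 32.1% of all tested genes had ranges that did not overlap. Over all genes the median log2 fold change was -0.64, and it was 0.46 over the 4312 genes with a mean log2 CPM of 5 or more. Among these better measured genes 802 were called higher and 160 lower. Leaving out Lrig1 replicate 1 gave 1366 calls, Lrig1 replicate 2 gave 1476 and Lgr5 replicate 2 gave 1550. With a minimum mean CPM of 5 the share of calls that were higher was 53.4%, against 73.5% here. With RLE scaling, which moved the median of all genes to -0.75, it was 66.2%, and DESeq2 called 2352 higher and 2228 lower.

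**Figure D1:**
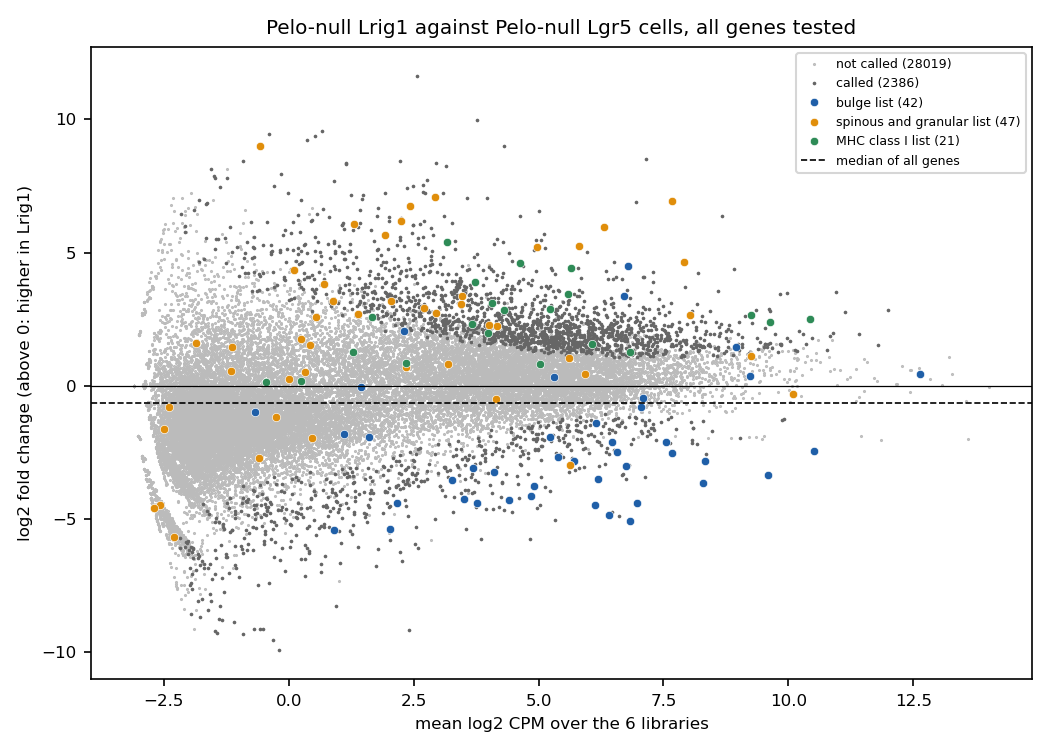
Each point is a gene, with its mean log2 CPM over the 6 libraries on the x axis and its log2 fold change on the y axis, above 0 where it was higher in Pelo-null Lrig1 cells. Bulge genes lie mostly below and spinous, granular and MHC class I genes mostly above the median of all genes, -0.64, drawn as a dashed line.

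The libraries differed in depth and quality between the groups. Lrig1 libraries held 13333497 to 22471651 counts and Lgr5 libraries 10501324 to 17219054. Genes of the mitochondrial genome took 6.50% to 7.68% of counts in Lrig1 and 15.3%, 7.18% and 3.82% in Lgr5 replicates 1, 2 and 3. Predicted genes of satellite-like sequence took 0.516% to 1.49% in Lrig1 and 1.72%, 6.43% and 9.40% in Lgr5. Spearman correlations between replicates across genes, which are not independent replicates, were 0.866 to 0.872 in Lrig1 and 0.820 to 0.825 in Lgr5. Leaving the mitochondrial and satellite-like genes out gave 2299 calls, and of the genes named here Aqp3 lost its call (adjusted p = 0.0767). Without both the Lgr5 library of highest mitochondrial share (Pelo-null replicate 1) and that of highest satellite-like share (WT replicate 3), an alternative chosen after seeing the data, 3681 genes were called, and Krt79, Teddm3, Vcan and Aqp3 lost their calls (adjusted p = 0.0629, 0.0536, 0.0722 and 0.0744). In sorted bulk samples, fewer cells of a type and less RNA per cell cannot be told apart.

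The sort genes were read first, since they check the labels of the populations. Lgr5, the R-spondin receptor by whose allele the bulge and germ cells were sorted, stood at 16.02, 29.4 and 6.23 CPM in Lrig1 replicates 1, 2 and 3 and at 549.8, 467 and 476 CPM in the Lgr5 replicates. The groups did not overlap, and the log2 difference was -4.85 ± 1.30 (SE, n = 3 and 3; edgeR adjusted p = 0.0378), with an adjusted p of 0.0695 to 0.139 when any 1 of the 6 libraries was left out. Lrig1, which encodes an inhibitor of growth factor receptors, stood at 37.7, 7.42 and 11.6 CPM in Lrig1 cells and at 12.03, 16.7 and 10.1 CPM in Lgr5 cells. Lrig1 replicate 1 was above all Lgr5 libraries and replicates 2 and 3 were not, and the difference of 0.55 ± 0.49 was not called (edgeR adjusted p = 0.483). Without Lrig1 replicate 1 the difference was -0.45. WT Lrig1 libraries held 39.2 and 41.7 CPM of Lrig1 and WT Lgr5 libraries 18.1, 10.4 and 15.8 CPM. The gene of the sort was thus at a high level in 1 of the 3 mutant Lrig1 libraries and in both WT ones. Lgr6, a receptor related to Lgr5, had a difference of 0.29 ± 0.49 (edgeR adjusted p = 0.718).

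Pelo was read at a lower level in the Lrig1 than in the Lgr5 mutants. It stood at 3.81, 0.483 and 0.857 CPM in Lrig1 cells and at 11.8, 23.6 and 15.1 CPM in Lgr5 cells, and the groups did not overlap. The log2 difference was -3.28 ± 0.81 (edgeR adjusted p = 0.0115), a call lost without Lrig1 replicate 2 (adjusted p = 0.0703) or Lrig1 replicate 3 (0.0622). WT Lrig1 libraries held 6.05 and 3.72 CPM of Pelo and WT Lgr5 libraries 17.4, 5.90 and 17.3 CPM, so that the mutant and WT ranges overlapped in Lgr5 cells. In WT cells the same difference was -1.47 ± 0.87 (edgeR adjusted p = 0.254), and mutant minus WT gave -1.81 ± 1.12 (edgeR unadjusted p = 0.117). On chromosome 13 (GRCm38, minus strand) Pelo spans 115088355 to 115090186, within Itga1, which spans 114953096 to 115101964 on the same strand, so reads of the overlap cannot be told apart by strand. Itga1, which encodes an integrin chain, had a difference of -0.55 ± 1.26 (edgeR adjusted p = 0.793) and one of 0.19 without Lgr5 replicate 2. The sources used here do not name the deleted part of Pelo, so the count of the whole gene does not measure the deletion.

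Most genes of the bulge program were lower in Lrig1 cells. Of its 42 listed genes 27 were called lower and 3 higher, where 2.08% and 5.77% of all genes were, and the median log2 fold change was -2.73 against -0.64 over all genes. With any 1 of the 6 libraries left out, 22 to 26 were called lower. The 27 include Lgr5, by whose allele the Lgr5 cells were sorted, and the list was written with earlier results of these data known. Cd34, a sialomucin on the surface of bulge cells, stood at 24.9, 10.6 and 10.8 CPM in Lrig1 cells and at 344, 329 and 366 CPM in Lgr5 cells (log2 -4.49 ± 0.88; edgeR adjusted p = 0.00318). The LIM homeobox factor gene Lhx2 stood at 20.7, 32.2 and 10.1 CPM against 1070, 542 and 528 CPM (log2 -5.09 ± 0.61; edgeR adjusted p = 7.73e-06). Sox9, an HMG-box factor of follicle stem cells, stood at 114, 166 and 99.05 CPM against 997, 1100 and 568 CPM (log2 -2.82 ± 0.41; edgeR adjusted p = 6.32e-05). In each of these genes the lowest Lgr5 library was above the highest Lrig1 library. The keratin gene Krt24 (-4.12 ± 0.76), the membrane glycoprotein gene Cd200 (-2.11 ± 0.40) and the calcium-binding protein gene S100a4 (-5.42 ± 1.14) were lower too. S100a4 was weakly read, at 0.0545, 0.483 and 0.234 CPM against 17.1, 9.71 and 6.82 CPM.

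Bulge genes called lower included several that encode secreted or matrix proteins. Ptn, which encodes the heparin-binding growth factor pleiotrophin, stood at 293, 173 and 282 CPM in Lrig1 cells and at 2957, 2761 and 1773 CPM in Lgr5 cells (log2 -3.32 ± 0.37; edgeR adjusted p = 2.22e-06). Ccn2, a matricellular protein gene, stood at 97.8, 106 and 66.97 CPM against 989, 1513 and 884 CPM (log2 -3.64 ± 0.40; edgeR adjusted p = 2.27e-06). Postn, which encodes the matrix protein periostin, stood at 634, 578 and 685 CPM against 2879, 3432 and 3896 CPM (log2 -2.43 ± 0.38; edgeR adjusted p = 0.000141). All 3 genes were abundant in both groups, and every Lgr5 library was above every Lrig1 library. The matrix genes Tnc (-4.27 ± 0.69) and Col6a1 (-2.65 ± 0.46), the latent TGF-beta binding protein gene Ltbp2 (-4.40 ± 0.69), the activin antagonist gene Fst (-2.11 ± 0.38) and Dkk3 of the Dickkopf family (-3.49 ± 0.49) belonged to the same group. So did the transcription factor genes Foxc1 (-2.47 ± 0.37), Runx1 (-2.81 ± 0.51) and Gli2 (-4.25 ± 0.99), the Hedgehog co-receptor gene Gas1 (-2.51 ± 0.36) and the Wnt receptor genes Fzd2, Fzd3 and Fzd7, described with the Wnt genes. The call of each gene named so far in the bulge group held when any 1 of the 6 libraries was left out.

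Lgr5 and 5 other bulge genes were called lower without holding in that way. Angptl7, of the angiopoietin-like family, stood at 26.9, 40.5 and 17.2 CPM in Lrig1 cells and at 529.9, 538 and 706 CPM in Lgr5 cells (-4.39 ± 1.04), with an adjusted p of 0.0809, 0.0536 and 0.0778 without Lrig1 replicates 1, 2 and 3, of 0.0549 with the replicate block and of 0.0560 without the low-count filter. The T-box factor gene Tbx1 (-4.39 ± 1.04) and the homeodomain protein gene Hopx (-1.92 ± 0.45) lost their calls without Lrig1 replicate 1 (adjusted p = 0.0542 and 0.0653), and the growth factor gene Fgf1 (-3.23 ± 0.79) without Lrig1 replicate 2 (adjusted p = 0.0589). Fgf18, a growth factor gene of resting bulge cells, stood at 0.218, 1.75 and 0.156 CPM against 31.8, 28.4 and 29.7 CPM (log2 -5.38 ± 1.56; edgeR adjusted p = 0.0385). Its call was lost without Lgr5 replicate 1, 2 or 3 or Lrig1 replicate 1 or 3, with an adjusted p of 0.0677 to 0.154. The groups of all 5 genes did not overlap. 

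Some genes held as bulge genes went the other way or were not called. Ccnd2, which encodes cyclin D2, stood at 659, 548 and 428 CPM in Lrig1 cells and at 33.3, 25.5 and 13.7 CPM in Lgr5 cells (log2 4.50 ± 0.46; edgeR adjusted p = 8.91e-07). Igfbp3, which encodes a binding protein of insulin-like growth factors, stood at 449, 342 and 257 CPM against 44.1, 33.5 and 22.9 CPM (log2 3.38 ± 0.41; edgeR adjusted p = 7.30e-06). Itga6, an integrin chain that anchors basal cells, stood at 947, 861 and 657 CPM against 298, 333 and 274 CPM (log2 1.45 ± 0.33; edgeR adjusted p = 0.00637). These 3 rose in Lrig1 cells without overlap of the groups. Krt15, a keratin gene of bulge and basal cells, stood at 8738, 7758 and 6074 CPM against 6923, 5742 and 4091 CPM and was among the 12 not called (log2 0.43 ± 0.34; edgeR adjusted p = 0.433). Nfatc1, a factor gene of resting bulge cells, was not called either (log2 0.33 ± 0.48; edgeR adjusted p = 0.669), and its difference was -0.34 without Lrig1 replicate 3.

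**Figure D2:**
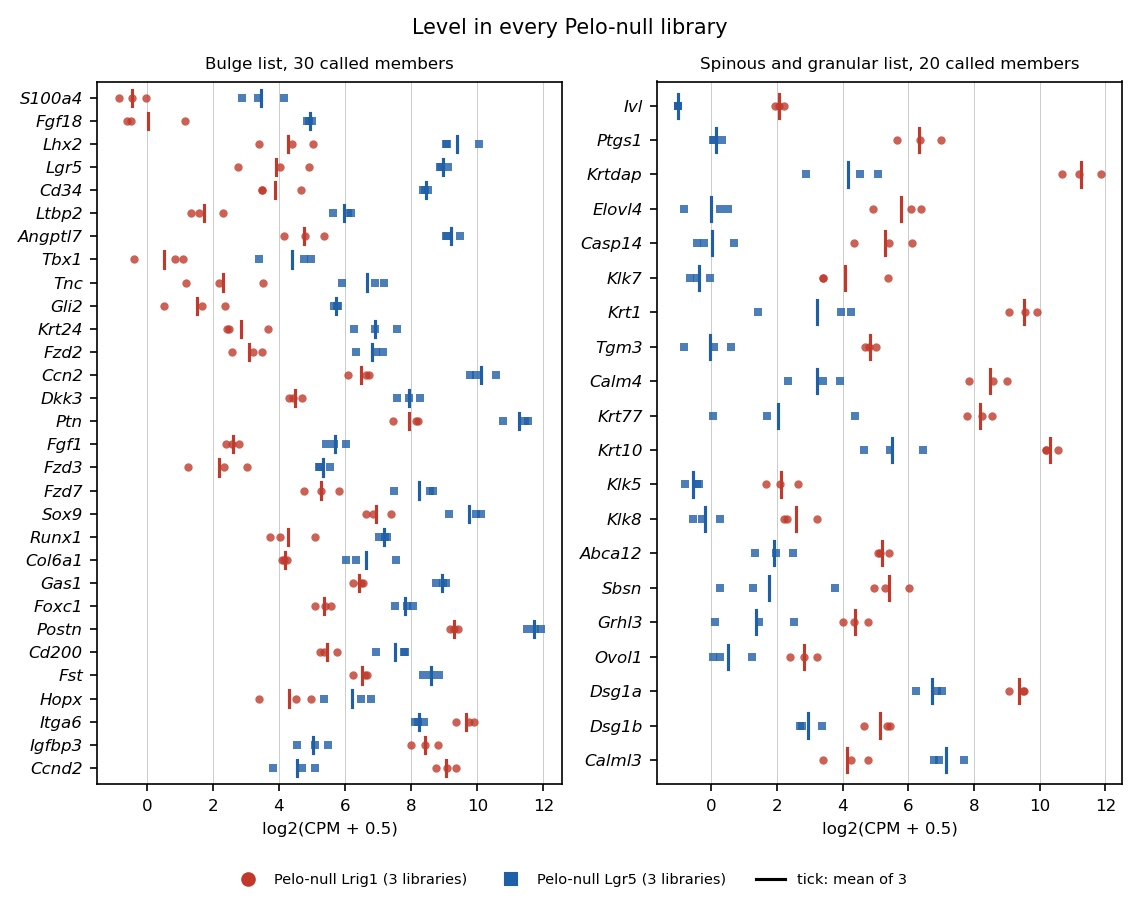
Level of each called gene of the bulge list (left) and of the spinous and granular list (right), as log2(CPM + 0.5), in the 3 Pelo-null Lrig1 libraries (circles) and the 3 Pelo-null Lgr5 libraries (squares), with the mean of each 3 as a tick. The Lgr5 libraries lie to the right in 27 of the 30 bulge genes, and the Lrig1 libraries lie to the right in 19 of the 20 spinous and granular genes. The members shown are those called, so the plot describes them and is no further evidence of their direction.

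More hair germ genes were called lower than higher. Of 24 tested, 6 were called lower and 3 higher (median -1.93), where 2.08% and 5.77% of all genes were. With any 1 library left out 3 to 6 were called lower, the lowest number without Lgr5 replicate 1, Lrig1 replicate 1 or Lrig1 replicate 2. Values were lower in 18 of the 24, and DESeq2 called 13 lower and 3 higher. Fgfr1, a receptor of fibroblast growth factors, stood at 15.6, 38.8 and 47.4 CPM in Lrig1 cells and at 424, 276 and 454 CPM in Lgr5 cells (log2 -3.50 ± 0.46; edgeR adjusted p = 1.70e-05). The Hedgehog receptor gene Ptch1 (-2.96 ± 0.61) and the BMP target gene Id3 (-2.21 ± 0.42) were lower too. The matrix gene Vcan (-4.53 ± 1.16) lost its call without Lgr5 replicate 1 (adjusted p = 0.0854), Lrig1 replicate 1 (0.0685) or Lrig1 replicate 2 (0.0758). Bmp4, a BMP ligand gene, rose, from 0, 0 and 0.698 CPM in Lgr5 cells to 48.6, 22.6 and 39.01 CPM in Lrig1 cells (log2 7.17 ± 0.88; edgeR adjusted p = 9.88e-06), and 2 of its Lgr5 libraries were at 0. Without Lgr5 replicate 3, the library above 0, the fitted log2 value was 12.28, so the size of the fold rests on that library. The Wnt ligand gene Wnt10a rose by 4.32 ± 0.68. Tgfbi, a matrix gene induced by TGF-beta, rose by 1.34 ± 0.33 and lost its call without Lgr5 replicate 2 or Lrig1 replicate 1 (adjusted p = 0.0547 and 0.0529).

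Called upper-follicle genes were, with 1 exception, higher in Lrig1 cells. Of 15 tested, 4 were called higher and 1 lower, with a median of 1.19. Of all genes 5.77% were called higher and 2.08% lower, and of those with a mean log2 CPM of 5 or more 18.6% and 3.71%. With a library left out the higher calls were 2 to 4, the lowest number without Lrig1 replicate 2, and DESeq2 called 7 higher. Ly6a, which encodes the surface antigen Sca-1, stood at 486, 393 and 344 CPM in Lrig1 cells and at 0.469, 0.142 and 0.537 CPM in Lgr5 cells (log2 9.99 ± 0.64; edgeR adjusted p = 4.88e-10). Plet1, a surface antigen of the isthmus and junctional zone, stood at 43.1, 70.9 and 47.2 CPM against 2.93, 16.4 and 11.5 CPM (log2 2.38 ± 0.54; edgeR adjusted p = 0.00628). Both held when any 1 library was left out. Krt79, a keratin gene of the infundibulum, stood at 179.9, 176 and 182 CPM against 5.40, 20.1 and 1.29 CPM (log2 4.33 ± 1.09; edgeR adjusted p = 0.0228). It lost its call without Lgr5 replicate 1 or 3 (adjusted p = 0.0924 and 0.0580) or Lrig1 replicate 1, 2 or 3 (0.0582, 0.0536 and 0.0502). Teddm3 (4.79 ± 1.30) stood under 5 CPM in all 6 libraries and lost its call without Lgr5 replicate 1 or 2 (0.0641 and 0.0783) or Lrig1 replicate 2 (0.0975). Aqp3, a water and glycerol channel gene, stood at 75.4, 106 and 64.7 CPM against 291, 266 and 249 CPM, and its lower call (-1.71 ± 0.52) was lost whenever any 1 of the 6 libraries was left out (adjusted p 0.0753 to 0.150). 

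Called barrier differentiation genes were, with 1 exception, higher in Lrig1 cells. Of 47 spinous and granular genes, which serve the outer layers of the epidermis, 19 were called higher and 1 lower, with a median of 2.24. Of all genes 5.77% were called higher and 2.08% lower, and of those with a mean log2 CPM of 5 or more 18.6% and 3.71%. With any 1 library left out 18 to 20 of the list were called higher. Krtdap, which encodes a secreted protein of differentiating keratinocytes, stood at 2346, 3723 and 1634 CPM in Lrig1 cells and at 6.87, 33.3 and 22.3 CPM in Lgr5 cells (log2 6.95 ± 1.000; edgeR adjusted p = 0.000210). Krt1 and Krt10, which form the filaments of suprabasal cells, moved together. Krt1 stood at 753, 969 and 534 CPM against 2.17, 14.9 and 18.7 CPM (log2 5.98 ± 0.82; edgeR adjusted p = 9.34e-05). Krt10 stood at 1172, 1499 and 1162 CPM against 24.7, 42.6 and 86.5 CPM (log2 4.64 ± 0.62; edgeR adjusted p = 3.80e-05). The protease gene Casp14 of the cornified layer (6.21 ± 0.78), the prostaglandin synthase gene Ptgs1 (7.10 ± 0.65) and the fatty acid elongase gene Elovl4 (6.74 ± 0.88) were higher too. Calml3, a calmodulin-like gene, fell, with 18.7, 27.1 and 9.97 CPM against 208, 123 and 109 CPM (log2 -2.98 ± 0.44; edgeR adjusted p = 8.15e-05). Of 33 keratin genes 8 were called higher and 1 lower, to be set beside the same shares. Krt14, the keratin gene of basal cells, stood at 8156, 6043 and 6463 CPM against 836, 502 and 442 CPM (log2 3.54 ± 0.45; edgeR adjusted p = 1.11e-05), and Krt16 (5.12 ± 1.07) and Krt80 (4.64 ± 0.68) were higher as well. A marker list for keratinocytes between the follicles had 8 of 12 called higher. Its summed level was 27960 to 37000 CPM in Lrig1 and 10480 to 15960 CPM in Lgr5 libraries. It holds Krt14, Krt15 and Ly6 genes and also Krt1 and Krt10 of suprabasal cells. The list is thus not particular to basal cells, and it shares genes with other lists described here. None of those markers was at 0 in all 6 libraries, and the part of such cells in these results was not tested.

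Promoters of 4 genes of the opposing programs, the barrier genes Krtdap and Krt10 and the bulge genes Cd34 and Ptn, are given to show what precedes their starts. Each sequence is the 250 bases before the start of the gene on its own strand, from RefSeq on GRCm38.p6, at chr7:30787655-30787904 (plus strand), chr11:99389365-99389614 (minus), chr1:194938571-194938820 (plus) and chr6:36810180-36810429 (minus). Capitals mark matches, on either strand, to TGANTCA (the AP-1 motif), TATAAA (the TATA box) or CTTTGA (a TCF/LEF motif), none of which overlapped.
Krtdap: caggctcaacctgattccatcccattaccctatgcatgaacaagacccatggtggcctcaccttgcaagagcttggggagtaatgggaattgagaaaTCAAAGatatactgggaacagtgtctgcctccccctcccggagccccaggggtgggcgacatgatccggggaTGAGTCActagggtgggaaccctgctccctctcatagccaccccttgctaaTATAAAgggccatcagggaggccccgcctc
Krt10: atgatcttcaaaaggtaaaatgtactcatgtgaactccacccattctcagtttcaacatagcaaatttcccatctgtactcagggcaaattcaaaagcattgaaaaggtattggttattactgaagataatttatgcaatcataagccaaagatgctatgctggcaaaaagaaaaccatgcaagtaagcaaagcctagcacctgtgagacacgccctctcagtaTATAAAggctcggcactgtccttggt
Cd34: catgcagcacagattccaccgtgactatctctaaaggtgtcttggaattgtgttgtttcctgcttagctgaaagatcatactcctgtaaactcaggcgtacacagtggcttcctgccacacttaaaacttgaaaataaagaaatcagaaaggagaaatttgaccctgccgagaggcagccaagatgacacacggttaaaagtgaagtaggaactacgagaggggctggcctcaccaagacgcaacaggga
Ptn: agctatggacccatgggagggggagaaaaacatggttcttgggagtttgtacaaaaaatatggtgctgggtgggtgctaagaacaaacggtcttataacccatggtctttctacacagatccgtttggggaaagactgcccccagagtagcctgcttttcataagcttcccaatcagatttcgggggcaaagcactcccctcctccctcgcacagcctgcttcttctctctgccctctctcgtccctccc
Krtdap held 1 match to each motif, with the AP-1 letters from 81 to 75 and the TATA letters from 30 to 25 bases before the start. In Krt10 the TATA letters lay from 26 to 21 bases before the start, and none of the motifs was found in the Cd34 or Ptn window. Of all 32851 promoters tabulated, 6.75% held the AP-1 letters, 12.4% the TATA letters and 13.8% the TCF/LEF letters. Of the 17116 tested genes with a promoter there the shares were 6.96%, 11.3% and 14.7%. Of the 1075 of these called higher they were 8.19%, 10.7% and 13.5%, and of the 429 called lower 7.23%, 13.3% and 13.3%. A match is a description of letters and not of a bound site.

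All called Ly6 surface genes were higher in Lrig1 cells, while barrier lipid genes were called at shares near those of better measured genes. Of 42 barrier lipid genes 9 were called higher and 2 lower, where 5.77% and 2.08% of all genes were. Of genes with a mean log2 CPM of 5 or more 18.6% were called higher and 3.71% lower, shares near those of the lipid list. Acer1, a ceramidase gene, stood at 34.8, 60.4 and 33.6 CPM in Lrig1 cells and at 0.235, 1.49 and 1.02 CPM in Lgr5 cells (log2 5.55 ± 0.70; edgeR adjusted p = 1.46e-05), and the lipase co-activator gene Abhd5 (3.83 ± 0.60) and the desaturase gene Scd1 (2.95 ± 0.43) were higher too. Of 17 Ly6 family genes, which encode small surface and secreted proteins, 9 were called higher (median 2.47), or 8 to 9 with any 1 library left out. Ly6d stood at 4143, 4461 and 2481 CPM against 20.2, 0.780 and 9.55 CPM (log2 8.50 ± 0.85; edgeR adjusted p = 2.27e-06). Every Lrig1 library was above every Lgr5 library in both genes. Ly6c1 (5.92 ± 0.70), Ly6g6c (6.36 ± 1.001), Ly6e (4.41 ± 0.68) and the complement regulator gene Cd59a (2.47 ± 0.44) were higher as well. 

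Called genes of immune recognition and defence were higher in Lrig1 cells. Of 21 genes of MHC class I and its antigen processing 14 were called higher (median 2.50), or 12 to 13 with any 1 library left out. Of all genes 5.77% were called higher, and of those with a mean log2 CPM of 5 or more 18.6%. H2-D1, a class I heavy chain gene, stood at 1609, 1315 and 1704 CPM in Lrig1 cells and at 276, 225 and 233 CPM in Lgr5 cells (log2 2.66 ± 0.36; edgeR adjusted p = 2.33e-05), and the peptide transporter gene Tap1 was higher by 2.90 ± 0.44. H2-Q6 (4.62 ± 0.53) and H2-Q7 (4.43 ± 0.49) have near-identical copies that can share reads, so their single values are uncertain. Of 12 class II genes 3 were called higher, to be set beside the same shares, and values were lower in 5. Cd74, the invariant chain gene, stood at 58.5, 103 and 66.9 CPM against 0.528, 0.709 and 0.268 CPM (7.25 ± 0.62). H2-Aa (6.36 ± 0.79) and H2-Eb1 (4.62 ± 0.97) were the others called. Markers of Langerhans cells and macrophages, which also carry class II, had 0 of 15 called by edgeR, with 1 lower and 0 higher at an unadjusted p under 0.05 and 1 lower by DESeq2. Their summed level was 99.05 to 136 CPM in Lrig1 and 73.5 to 149.5 CPM in Lgr5 libraries, and none was at 0 in all 6. The part of such cells in the class II values was not tested. 

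Of 33 genes of interleukin-1 signalling and antimicrobial defence 12 were called higher (median 2.05), or 9 to 11 with any 1 library left out. Of all genes 5.77% were called higher, and of those with a mean log2 CPM of 5 or more 18.6%. Il1r2, a decoy receptor gene, stood at 671, 465 and 318 CPM in Lrig1 cells and at 0.528, 0.355 and 1.88 CPM in Lgr5 cells (512-fold; edgeR adjusted p = 7.46e-06). Il1rn, the receptor antagonist gene, stood at 411, 356 and 211 CPM against 4.52, 1.84 and 3.92 CPM (log2 6.57 ± 0.64; edgeR adjusted p = 6.73e-07). Both genes that restrain interleukin-1 were thus far above the Lgr5 libraries in every Lrig1 library. The interleukin-36 family gene Il1f9 (6.69 ± 0.87), the beta-defensin gene Defb1 (8.43 ± 0.85) and the peptidoglycan recognition gene Pglyrp4 (4.41 ± 0.80) were higher too. Among the 12 largest rises of genes with a mean log2 CPM of 3 or more were Il20ra, an interleukin-20 receptor chain, with 158, 140.4 and 150.2 CPM against 0.352, 0.993 and 0.161 CPM (8.25 ± 0.65), the serpin gene Serpinb2 (6.88 ± 0.82), Oas1f of the oligoadenylate synthetase family (7.05 ± 0.62), Npl, an enzyme gene of sialic acid breakdown (7.23 ± 0.66), and Clca3a2 of a family of chloride channel regulators (6.37 ± 0.60). Among the 12 largest falls, by the same minimum, were the peptidase gene Mme (-5.73 ± 1.21), the retinoic acid hydroxylase gene Cyp26b1 (-4.74 ± 0.88), the cationic amino acid transporter gene Slc7a2 (-4.72 ± 0.78) and Shisa2, an inhibitor gene of Wnt and FGF receptors (-5.03 ± 0.76). Mme stood at 0.327, 5.79 and 1.40 CPM in Lrig1 cells and at 179.7, 112 and 111 CPM in Lgr5 cells. 

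Called Wnt ligand genes were higher and called Frizzled receptor genes mostly lower in Lrig1 cells. Of 13 Wnt ligand genes tested 7 were called higher in Lrig1 cells, with a median of 1.60. Of all genes 5.77% were called higher and 2.08% lower. Wnt3 stood at 70.9, 95.9 and 69.1 CPM in Lrig1 cells and at 2.11, 4.40 and 1.18 CPM in Lgr5 cells (log2 4.95 ± 0.53; edgeR adjusted p = 1.58e-06). Wnt10a stood at 124, 79.6 and 83.8 CPM against 1.70, 1.28 and 11.3 CPM (log2 4.32 ± 0.68; edgeR adjusted p = 0.000219). Wnt5a stood at 41.3, 36.4 and 49.7 CPM against 1.47, 1.56 and 5.21 CPM (log2 3.94 ± 0.58; edgeR adjusted p = 7.35e-05). No Lgr5 library reached the lowest Lrig1 library in these 3 genes, and Wnt3a was higher too (2.96 ± 0.62). Of 10 Frizzled receptor genes 4 were called lower and 1 higher, with a median of -2.73. Fzd2 stood at 8.88, 10.8 and 5.45 CPM in Lrig1 cells and at 141, 121 and 80.7 CPM in Lgr5 cells (log2 -3.77 ± 0.50; edgeR adjusted p = 1.86e-05). Fzd7 stood at 56.4, 26.4 and 37.8 CPM against 378, 405 and 178 CPM (log2 -2.99 ± 0.46; edgeR adjusted p = 0.000119). Fzd1 (-2.92 ± 0.43) and Fzd3 (-3.08 ± 0.69) were lower as well. Over the whole list of 56 Wnt genes 11 were called higher and 11 lower (median -0.77), and 7 were higher without Lgr5 replicate 1 and 6 when the compared groups were fitted alone. Lgr5, the gene of the sort, was among the lower ones. Among the other members the nuclear effector gene Tcf7l2 was lower (-2.17 ± 0.35) and the inhibitor gene Apcdd1 higher (6.24 ± 1.08), the latter with 0.600, 26.8 and 15.96 CPM in Lrig1 replicates 1, 2 and 3.

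**Figure D3:**
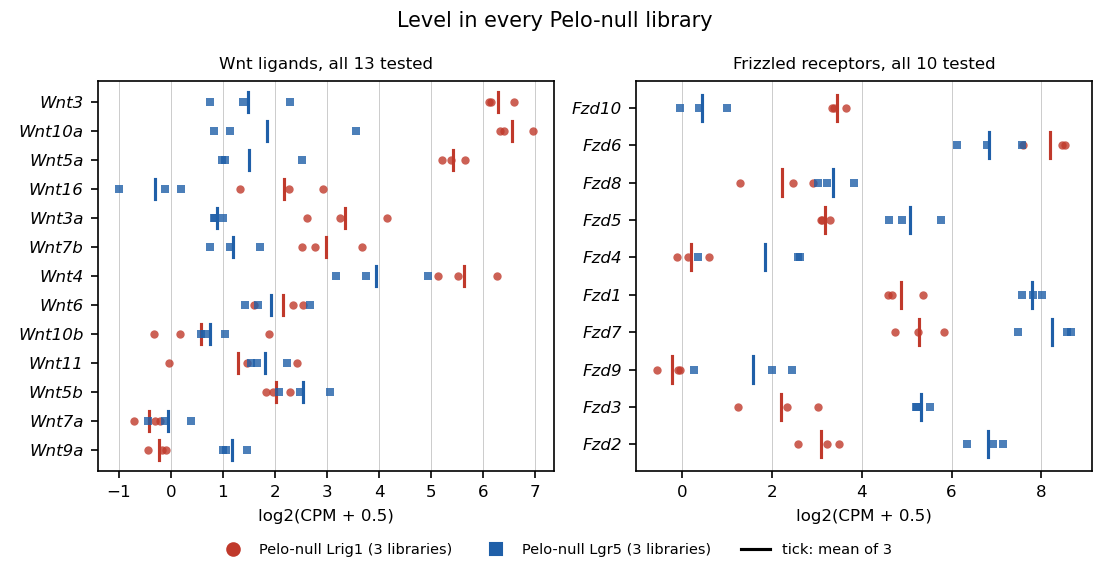
Level of all 13 Wnt ligand genes (left) and all 10 Frizzled receptor genes (right) that were tested, as log2(CPM + 0.5), in the 3 Pelo-null Lrig1 libraries (circles) and the 3 Pelo-null Lgr5 libraries (squares), with the mean of each 3 as a tick. The 7 called ligands are those in which the circles lie to the right at the top of the left panel, and the Lgr5 libraries lie to the right in the 4 Frizzled genes called lower.

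BMP and Hedgehog genes were mostly lower in Lrig1 cells where they were called. Of 44 BMP and TGF-beta genes 11 were called lower and 2 higher (median -1.36), where 2.08% and 5.77% of all genes were. Grem1, a secreted BMP antagonist gene, stood at 21.4, 14.6 and 19.00 CPM in Lrig1 cells and at 702, 534 and 393 CPM in Lgr5 cells (log2 -4.89 ± 0.81; edgeR adjusted p = 0.000649). Id2, a BMP target gene, stood at 164, 135 and 112 CPM against 776, 1030 and 606 CPM (log2 -2.56 ± 0.41; edgeR adjusted p = 0.000188), and Id4 was lower with it (-2.86 ± 0.46). Beside Bmp4, the co-receptor gene Tgfbr3 was higher (2.12 ± 0.38). Of 18 Hedgehog genes 7 were called lower (median -2.05), or 4 without Lrig1 replicate 1 and 4 without Lrig1 replicate 2. They included Ptch1, Gas1 and Gli2, named above, and the co-receptor gene Boc, with 30.03, 45.3 and 35.9 CPM against 160.1, 207 and 189 CPM (log2 -2.32 ± 0.45; edgeR adjusted p = 0.00144). Of 24 Notch genes 1 was called lower and 2 higher, shares near the 2.08% and 5.77% of all genes. The ligand gene Jag1 was lower (-2.17 ± 0.34), and the ligand gene Dll1 (2.37 ± 0.46) and the fringe gene Rfng (2.92 ± 0.69) were higher. Jag1 stood at 124, 158 and 128 CPM in Lrig1 cells and at 488, 698 and 658 CPM in Lgr5 cells. Of 34 EGF, FGF and IGF genes 3 were called higher and 4 lower, where 5.77% and 2.08% of all genes were. With any 1 library left out 2 to 3 were lower, and 7 were lower by DESeq2.

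Called transcription factor genes of the bulge were mostly lower, and those of the upper follicle mostly higher. A gene can belong to more than 1 list, so these calls are not independent of those given above. Of 25 factors listed for the bulge 10 were called lower and 1 higher (median -1.48), where 2.08% and 5.77% of all genes were. The higher one was Nfix (1.67 ± 0.40), whose call was lost without Lgr5 replicate 2 (adjusted p = 0.0598). Of 29 factors listed for the upper follicle and differentiation 9 were called higher and 1 lower (median 0.37). Of genes with a mean log2 CPM of 5 or more 18.6% were called higher and 3.71% lower. Gata3 stood at 1105, 1050 and 892 CPM in Lrig1 cells and at 169, 162 and 286 CPM in Lgr5 cells (log2 2.30 ± 0.37; edgeR adjusted p = 0.000180). Klf5, a Krüppel-like factor gene, stood at 117, 88.2 and 88.6 CPM against 0.352, 1.84 and 11.97 CPM (log2 4.36 ± 0.82; edgeR adjusted p = 0.00190). Both were higher in every Lrig1 library. Cebpa, a factor gene of keratinocyte and sebocyte differentiation (3.07 ± 0.63), and the nuclear receptor gene Rora (2.10 ± 0.39) were higher too, and Tfap2b of the AP-2 family was lower (-1.57 ± 0.33). 

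Called adhesion and matrix genes were mostly lower, and called junction genes mostly higher. Of 49 adhesion and matrix genes 15 were called lower and 3 higher, where 2.08% and 5.77% of all genes were (median -0.82 against -0.64 over all genes). The lower calls were 9 without Lrig1 replicate 1 and 9 without Lrig1 replicate 2. Hmcn1, which encodes the matrix protein hemicentin, stood at 10.7, 14.6 and 28.4 CPM in Lrig1 cells and at 401, 573 and 448 CPM in Lgr5 cells (log2 -4.73 ± 0.50; edgeR adjusted p = 1.28e-06). The integrin gene Itgb8 (-2.76 ± 0.42) and the collagen gene Col8a2 (-4.47 ± 0.67) were lower too, and the thrombospondin gene Thbs2 was higher (3.63 ± 0.75, or 5.47 without Lgr5 replicate 3). Of 28 genes of desmosomes and other junctions 9 were called higher and 1 lower (median 0.67). Of genes with a mean log2 CPM of 5 or more 18.6% were called higher and 3.71% lower. Dsg1a, a desmosomal cadherin gene, stood at 726, 742 and 539.6 CPM against 129, 75.2 and 117 CPM (log2 2.64 ± 0.44; edgeR adjusted p = 0.000269), and the desmosome genes Pkp1 (2.61 ± 0.35) and Jup (2.82 ± 0.50) were higher with it. Among connexin genes Gjb5 was higher (4.10 ± 0.60) and Gjb6 lower (-3.42 ± 0.75). 

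Some genes of protein synthesis and respiration were called higher, in numbers that depended on single libraries. Of 82 genes for proteins of the cytosolic ribosome 16 were called higher (median 0.94), of 76 mitochondrial ribosomal genes 23 (1.07), of 81 nuclear genes of oxidative phosphorylation 24 (1.12) and of 72 translation factor genes 21 (0.97). Of the 4312 genes with a mean log2 CPM of 5 or more, 18.6% were called higher. Without Lgr5 replicate 1, in which 15.3% of counts were mitochondrial, the calls in these lists were 41, 26, 44 and 20 in that order. They were 7, 8, 8 and 9 without Lgr5 replicate 2, and 6, 13, 12 and 10 without Lgr5 replicate 3. Without Lrig1 replicate 1 they were 7, 8, 11 and 9, and without Lrig1 replicate 2 8, 12, 14 and 11. Without the 2 Lgr5 libraries of highest mitochondrial and satellite-like share they were 58, 32, 59 and 32, and limma-voom called 30 genes of the cytosolic ribosome. Rplp0, of the ribosomal stalk, stood at 2364, 2039 and 2162 CPM in Lrig1 cells and at 484, 218 and 225 CPM in Lgr5 cells (log2 2.82 ± 0.48; edgeR adjusted p = 0.000327). Eef2, the elongation factor gene that moves the ribosome along, stood at 636, 598 and 644 CPM against 134, 124 and 102 CPM (log2 2.38 ± 0.41; edgeR adjusted p = 0.000426). Uqcrc1 of respiratory complex III (3.75 ± 0.58) and Mrpl46 of the mitochondrial ribosome (3.59 ± 0.63) were higher too. Of 29 genes of ribosome rescue and messenger RNA surveillance 4 were called higher and Pelo lower. The higher calls were 2 without Lgr5 replicate 2 or 3. They were 8 without the 2 Lgr5 libraries of highest mitochondrial and satellite-like share. Wdr61, of the Ski complex (3.003 ± 0.51), and Cnot9, of the CCR4-NOT deadenylase (2.88 ± 0.49), were the higher ones whose calls held when any 1 library was left out.

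**Figure D4:**
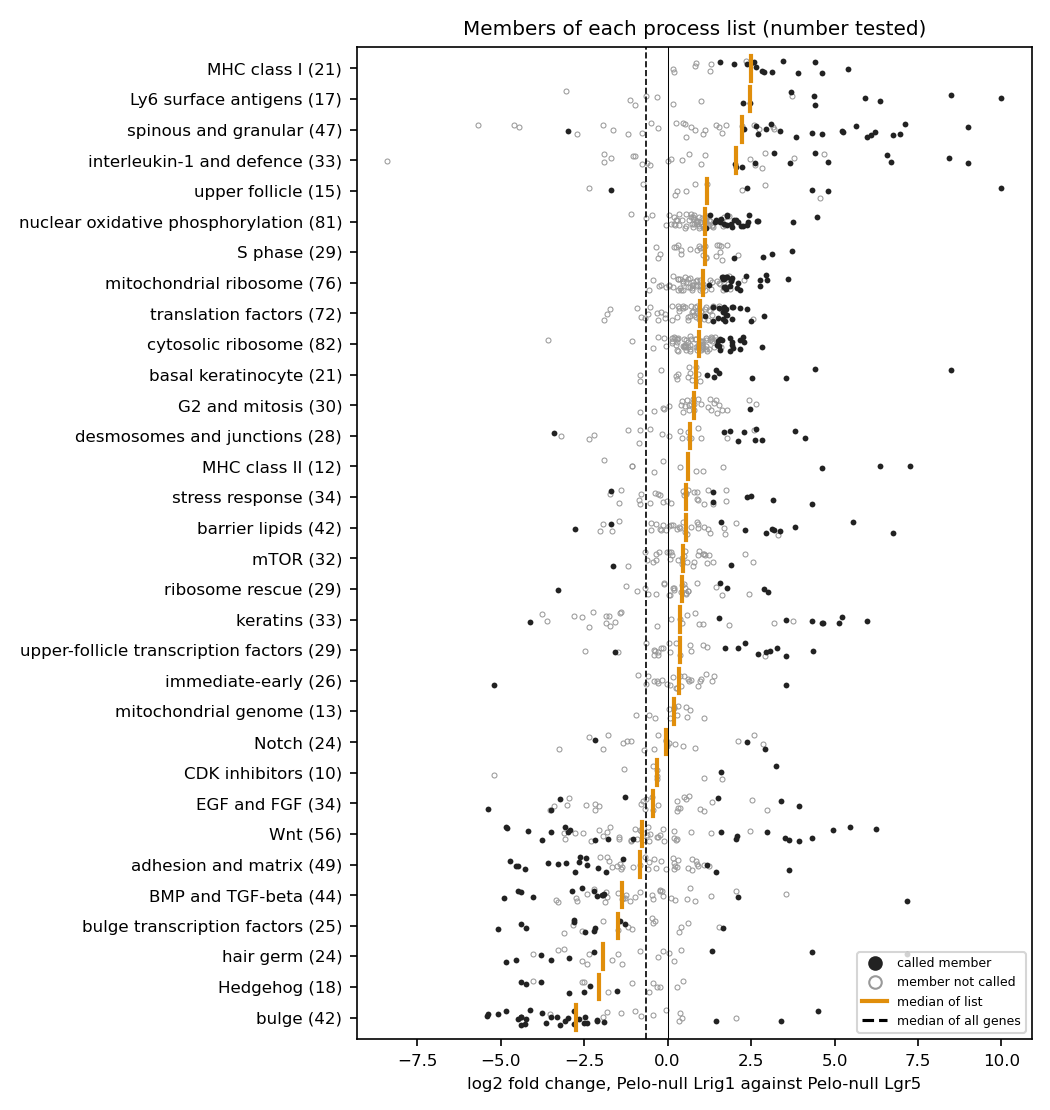
Log2 fold change of Pelo-null Lrig1 against Pelo-null Lgr5 cells for every tested member of each process list, with called members filled and the others open. The thick tick is the median of the list and the dashed line the median of all genes, -0.64. The bulge and MHC class I lists stand at the 2 ends, and the called members of the Wnt list lie on both sides.

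The number of cell cycle genes called depended on the setting. Of 29 S-phase genes 4 were called higher, or 3 to 8 with any 1 library left out. The number was 7 by DESeq2 and 17 without the 2 Lgr5 libraries of highest mitochondrial and satellite-like share. Of 30 genes of G2 and mitosis 1 was called higher, or 3 by DESeq2 and 9 without those 2 libraries. It was 0 with RLE scaling and without satellite-like and mitochondrial genes. The same 0 was found without Lgr5 replicate 2 or 3 or Lrig1 replicate 1 or 3. Of all genes tested 5.77% were called higher, and of those with a mean log2 CPM of 5 or more 18.6%. The S-phase genes called included the replication genes Mcm5 (3.14 ± 0.58), Gins2 (3.73 ± 0.52) and Tyms (2.86 ± 0.46). Cdkn1a, a cyclin-dependent kinase inhibitor gene, stood at 91.3, 143 and 85.9 CPM in Lrig1 cells and at 15.4, 8.72 and 9.72 CPM in Lgr5 cells (log2 3.24 ± 0.50; edgeR adjusted p = 0.000115). Of 10 genes of such inhibitors 2 were called higher and 0 lower, and values were lower in 6 (median -0.31). The replication genes named and Cdkn1a were thus higher in the same libraries, while 25 of the 29 S-phase genes were not called.

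Markers of other cells of the skin were read beside these results, where 5.77% of all genes were called higher and 2.08% lower. Of 14 melanocyte markers 4 were called lower in Lrig1 cells, or 2 without Lrig1 replicate 1 and 2 without Lrig1 replicate 2 and 8 by DESeq2, and their summed level was 27.5 to 31.2 CPM in Lrig1 and 162 to 351 CPM in Lgr5 libraries. Mitf, the regulator of pigment cells, stood at 24.2, 24.2 and 17.9 CPM against 77.99, 80.6 and 129 CPM (log2 -2.12 ± 0.45; edgeR adjusted p = 0.00311). Of 19 fibroblast and dermal papilla markers 2 were called lower (7 by DESeq2) and 1 higher, with sums of 35.8 to 48.6 CPM and 116 to 134 CPM, and the collagen gene Col1a2 was among the lower (-4.13 ± 0.79). Both summed levels were lower in every Lrig1 library than in any Lgr5 library, as were the bulge matrix genes described above. Of 13 T-cell markers Thy1 was higher (3.23 ± 0.62), with sums of 24.1 to 58.7 CPM and 10.5 to 30.1 CPM. Endothelial markers summed to 9.92 to 14.6 CPM and 23.5 to 30.8 CPM, with 3 of 15 called lower by DESeq2 and 5 lower at an edgeR unadjusted p under 0.05. Sebocyte markers summed to 449.6 to 801 CPM and 242 to 293 CPM, with 2 of 15 called higher (4 by DESeq2) and 1 lower. Of 16 markers of the inner root sheath and hair shaft Hoxc13 was lower (-3.91 ± 0.87) and Gata3 higher. None of these markers was at 0 in all 6 libraries, and the part of such cells in the results was not tested. 

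Most calls had the same direction in control cells. WT Lrig1 against WT Lgr5, which compares none of the mutant libraries but took its spread from the fit over all 17, called 3369 genes, 11.1% of those tested (9.09% higher and 1.99% lower), with 2152 when the compared groups were fitted alone and 2132 or 1294 without WT Lrig1 replicate 1 or 2, where the lone library left is taken to vary like the other groups. In all 1691 genes, 5.56% of those tested, were called in the same direction in both genotypes, 70.9% of the mutant calls and 50.2% of the WT calls. Of the 2386 mutant calls 2350 had the same sign in WT. The share of all tested genes with the same sign in both was not counted, so that number has no measure beside it. WT Lrig1 libraries held 21694454 and 26827421 counts and WT Lgr5 libraries 9647507 to 11261870. Satellite-like genes took 0.933% and 0.287% of counts in WT Lrig1 and 4.07% to 25.4% in WT Lgr5. The satellite-like share thus went with population in both genotypes, and its part in the shared calls was not tested. Of the 27 lower bulge genes 19 were also called lower in WT, as were all 7 lower Hedgehog genes, and all 9 higher Ly6 genes were called higher in both. Cd34 was among the 8 bulge genes called in the mutants and not in WT, where WT Lrig1 libraries held 28.3 and 44.6 CPM and WT Lgr5 libraries 232, 194 and 266 CPM (log2 -2.66 ± 0.95; edgeR adjusted p = 0.0803). Its groups did not overlap in WT either, where 45.0% of all genes had groups that did not (19.7% with Lrig1 above and 25.4% with Lrig1 below), and the genotypes' differences were not shown to differ (log2 -1.82 ± 1.14; edgeR unadjusted p = 0.127). Fzd3 was another, at 3.12 and 9.53 CPM in the WT Lrig1 and 6.69, 9.36 and 18.6 CPM in the WT Lgr5 libraries (-0.87 ± 0.74; mutant minus WT -2.21 ± 0.96; edgeR unadjusted p = 0.0297). All 3 mutant Lgr5 libraries held more Fzd3 than any WT Lgr5 library. 

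**Figure D5:**
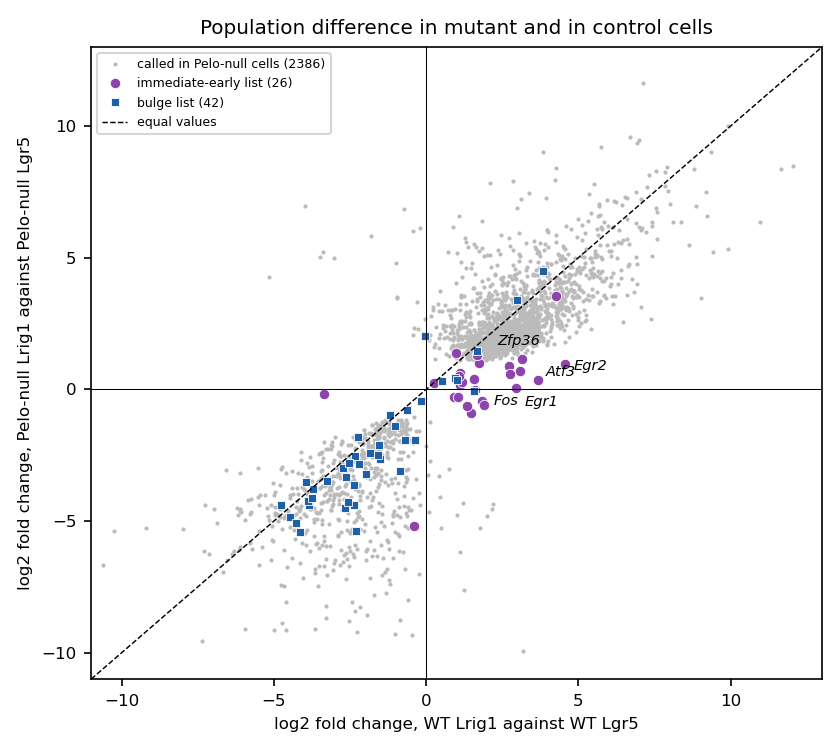
Log2 fold change of Lrig1 against Lgr5 in WT cells (horizontal axis) and in Pelo-null cells (vertical axis), for the 2386 genes called in Pelo-null cells (dots), the 42 bulge genes (squares) and the 26 immediate-early genes (large circles), with the dashed line at equal values. Bulge genes lie mostly in the lower left, and 24 of the 26 immediate-early genes lie where the mutant value is lower than the WT value.

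The difference itself, Lrig1 minus Lgr5 in Pelo-null cells minus the same in WT cells, was tested in the same fit. By edgeR it called 0 genes, with a smallest adjusted p of 0.151, and 1613 genes had an unadjusted p under 0.05, 5.31% of those tested (2.57% higher and 2.74% lower). DESeq2 called 62 genes and limma-voom 0. Of the genes with the smallest p, Clic3, of the chloride intracellular channel family, stood at 20.98, 50.8 and 19.2 CPM in Pelo-null Lrig1 and at 19.9, 11.98 and 12.02 CPM in Pelo-null Lgr5 cells, and at 58.7 and 81.2 CPM and 2.10, 2.56 and 1.15 CPM in WT (log2 -4.12 ± 0.78; edgeR unadjusted p = 1.80e-05). Tm4sf1, a tetraspanin-like gene, stood at 15.6, 16.4 and 37.8 CPM and 10.3, 14.3 and 8.05 CPM in Pelo-null cells and at 55.9 and 27.03 CPM and 1.82, 0.769 and 0.601 CPM in WT (log2 -4.19 ± 0.86; edgeR unadjusted p = 4.85e-05). In both genes every Pelo-null Lgr5 library was above every WT Lgr5 library. These 2 and Gpt were picked for a small p, so the separation of their libraries describes them and is no further evidence. Gpt, an alanine aminotransferase gene, stood at 34.9, 32.6 and 29.2 CPM and 2.82, 1.77 and 3.87 CPM in Pelo-null cells and at 42.4 and 24.4 CPM and 7.91, 21.2 and 15.7 CPM in WT (log2 2.35 ± 0.68; edgeR unadjusted p = 0.00193), with every Pelo-null Lgr5 library below every WT Lgr5 library. Ly6d gave -3.54 ± 0.95 (edgeR unadjusted p = 0.00129), with 4237 and 5196 CPM in the WT Lrig1 and 1.15, 1.60 and 0.601 CPM in the WT Lgr5 libraries. Il1rn gave -2.65 ± 0.79 (edgeR unadjusted p = 0.00257).

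Immediate-early genes, which growth signals and stress switch on within minutes, were called in WT more than in mutant cells. Of 26 tested, 12 were called higher in WT Lrig1 against WT Lgr5 cells, where 9.09% of all genes were. In the mutants 1 was called higher and 1 lower, and the medians were 1.59 and 0.33. The difference between genotypes had an unadjusted p under 0.05 in 13 of the 26, lower in the mutants in each case, where 2.74% of all genes were, but 0 passed adjustment in edgeR. Zfp36, which encodes a protein that destabilises messenger RNA, stood at 400.1, 475 and 268 CPM in Pelo-null Lrig1 and at 293, 107 and 119 CPM in Pelo-null Lgr5 cells (log2 1.14 ± 0.45; edgeR adjusted p = 0.126). In WT it stood at 561 and 624 CPM and 81.5, 76.5 and 42.5 CPM (log2 3.15 ± 0.51; edgeR adjusted p = 0.000119), and the difference was -2.01 ± 0.66 (edgeR unadjusted p = 0.00557). Every mutant Lgr5 library was above, and every mutant Lrig1 library below, the WT libraries of the same population. Btg2, an antiproliferative gene, stood at 141, 242 and 67.3 CPM and 109, 73.2 and 58.7 CPM in Pelo-null cells and at 221 and 212 CPM and 19.3, 36.98 and 41.7 CPM in WT (log2 -1.83 ± 0.66; edgeR unadjusted p = 0.0106). Its mutant Lgr5 libraries were again above the WT ones, while the Lrig1 libraries of the genotypes overlapped. Fosl1, a subunit gene of AP-1, was called higher in both genotypes (3.54 ± 0.76 in mutants and 4.26 ± 0.80 in WT), with an adjusted p of 0.0506 in the mutants when the compared groups were fitted alone. Without Lgr5 replicate 1, 4 of the 26 were called higher in the mutants, and 5 without the 2 Lgr5 libraries of highest mitochondrial and satellite-like share. The lower call was Dusp2, a phosphatase gene at 0.0545, 0.362 and 0 CPM against 7.92, 8.15 and 0.429 CPM (-5.20 ± 1.42), lost without Lgr5 replicate 2 (adjusted p = 0.0596) or Lrig1 replicate 1 or 3 (0.109 and 0.0874).

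Against Pelo-null Lgr6 cells, another population of the upper follicle and epidermis, no gene of Pelo-null Lrig1 cells was called. The comparison, which shares its Lrig1 libraries with the one above, called 0 genes by edgeR, with 1277 at an unadjusted p under 0.05, or 4.20% (1.91% higher and 2.29% lower), and a smallest adjusted p of 0.141. DESeq2 called 63 genes and limma-voom 0. Of the genes with the smallest p, Cd59a stood at 197, 242 and 228 CPM in Lrig1 and at 47.3, 27.6 and 36.6 CPM in Lgr6 cells (log2 2.58 ± 0.45; edgeR unadjusted p = 4.64e-06). Slc38a4, an amino acid transporter gene, stood at 5.83, 13.4 and 10.1 CPM against 0.234, 0.562 and 0.266 CPM (log2 4.78 ± 0.97; edgeR unadjusted p = 8.60e-05). Both were higher in every Lrig1 library, which, as they were picked for a small p, is no further evidence. Ly6d stood at 3749, 2806 and 4851 CPM in Lgr6 cells, a range that overlapped that of the Lrig1 libraries (-0.04 ± 0.61), and so did Lhx2 at 35.8, 9.81 and 22.7 CPM (-0.12 ± 0.51). Cd34 stood at 5.50, 0.937 and 0.159 CPM in Lgr6 cells, below every Lrig1 library (log2 2.81 ± 0.84; edgeR unadjusted p = 0.00345).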

How the data were processed

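Gene expression was measured by RNA sequencing of sorted epidermal cells in 17 libraries of 6 groups. The deposited table holds raw counts, whole-number reads per gene; per the submitters' processing notes STAR and edgeR were used with GRCm38 (mm10), with aligner settings, strand and annotation version not given in the sources used here. Of its 48820 gene identifiers 48058 matched GENCODE M21, which gave the symbols, 762 did not, and 124 shared a symbol with another. Groups and replicate numbers came from the labels. No 2 replicates agreed within sampling noise (chi-square per degree of freedom at least 38.5).

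The counts were fitted as deposited with edgeR 4.0.16 (R 4.3.3), with TMM scaling, filterByExpr (minimum count 10, minimum total 15), 1 coefficient for each group over all 17 libraries and the robust quasi-likelihood test. P-values were adjusted by Benjamini and Hochberg over all 30405 genes tested. Each ± is a standard error, computed as the log2 fold change divided by the square root of the F statistic. A test on simulated data for Pelo-null Lrig1 against Pelo-null Lgr5 covered 30405 genes, with 100 changed by 2 and 100 by 4 (log2). The changed genes were drawn only from those with a mean log2 CPM above 3. Of the changes of 2, 43% were recovered, and of those of 4, 95%, and 5 of 30205 unchanged genes were called. Recovery in more weakly read genes was not tested, and 18160 of the 30405 genes had a mean log2 CPM under 1. Total counts per library are given with the results; the spread between replicates exceeded counting error.

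Genes named are the 12 with the largest fold change in each direction among called genes with a mean log2 CPM of 3 or more and groups that do not overlap, the sort and target genes, up to 5 members per direction of each list with the smallest p, all called genes of the upper follicle, bulge and hair germ lists, and the 4 per direction with the smallest p in the difference between genotypes and against Lgr6 cells. A subset of these is described, and some are not reported here. Members and gene lists were chosen with earlier results of these data known. Alternatives were RLE scaling, other filters, DESeq2 1.42.0, limma-voom (limma 3.58.1), a replicate block, a fit on the compared groups only, leaving out satellite-like and mitochondrial genes, and leaving out each library in turn. Promoters came from RefSeq (GRCm38.p6).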

Additional observations from a re-analysis of the deposited data

How the results depend on the processing

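Leaving out 1 library moved the number of calls in Pelo-null Lrig1 against Pelo-null Lgr5 cells from 2386 to between 1366 (without Lrig1 replicate 1) and 2630 (without Lgr5 replicate 1). DESeq2 called 4580 genes, and 3681 were called without both the Lgr5 library of highest mitochondrial share and the one of highest satellite-like share, an alternative chosen after seeing the data. RLE scaling (2225), no filter (2820), a minimum mean CPM of 5 (2547), limma-voom (2982), the compared groups alone (2382) and the omission of satellite-like and mitochondrial genes (2299) stayed within 1.5 times of 2386. Replicate numbers were shared by name only: the deviations of same-numbered Lrig1 and Lgr5 libraries correlated at 0.0513, 0.0190 and 0.0880 over 8882 genes, Lrig1 replicate 2 correlated best with Lgr5 replicate 1 (0.0289), and a fit with the replicate block called 2342 genes.

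In WT cells DESeq2 called 7396 genes, the compared groups alone gave 2152 and leaving out 1 library gave 1294 to 3883, against 3369. For the difference between genotypes, 0 in edgeR, the calls were 25 with no filter, 62 by DESeq2, 0 to 3 with 1 library left out and 3 under the alternative chosen after seeing the data. Against Lgr6 cells, also 0, they were 14 with no filter, 1 with a minimum mean CPM of 5, 63 by DESeq2, 1 with the replicate block and 13 from the compared groups alone.

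Of 129 called genes named, 114 kept their call under every alternative, 115 whenever any 1 library was left out, and 0 changed direction. Of 9 named and not called, 5 changed sign in at least 1 alternative. With a minimum mean CPM of 5 the log2 difference was -0.019 for Krt15, -0.0549 for Nfatc1 and -0.15 for Lgr6. With 1 library left out it ranged from -0.34 to 0.75 for Nfatc1, from -0.45 to 0.93 for Lrig1, from -0.015 to 0.61 for Lgr6 and from -2.55 to 0.19 for Itga1. The cause was not tested. No alternative varied depth, so what depth limits was not tested.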
